A study of Mus musculus with 2 samples.

Results

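Chemokines, interleukins and their receptors were examined in sorted mouse epidermal keratinocytes from which Med1, part of the Mediator coactivator complex, had been removed by Cre. The genes were taken by symbol alone, but the choice was made with earlier results of these data known. Every array probe annotated to a gene whose symbol begins with Ccl, Cxcl, Ccr, Cxcr, Ackr or Il followed by a digit was taken, which gave 174 probes for 128 genes, of 25697 probes on the array and 16593 genes with a symbol. A Med1cKO pool (strain label MED1 fl/fl Cre), with Cre under the keratin 14 promoter, was set against a CON pool of littermates without Cre (strain label MED1 fl/fl C57BL6). Both pools carried the floxed Med1 alleles. Each pool combined integrin alpha6 positive, CD34 negative keratinocytes of 3 mice from back skin and was hybridized to 1 Illumina bead array. Keratin 14 is made by basal cells of the epidermis and follicle, so leukocytes and dermal cells are not the cells in which this Cre is meant to act. The labels state neither age nor sex, and some of their protocol fields speak of RNA of whole skin instead of sorted cells.

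Chemokines are small secreted proteins that guide leukocytes through receptors coupled to G proteins. They are named CC or CXC by the spacing of their first cysteines. Atypical chemokine receptors bind chemokines without this signalling and clear or redistribute them. Interleukins act through paired receptor chains, some of which are shared between ligands and some of which are soluble or membrane decoys. Keratinocytes make some of these proteins at rest, such as the chemokines Ccl27 and Cxcl14 and the alarmin Il33, and induce others such as Cxcl1 after injury.

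The arrays were alike in brightness, with a median probe intensity of 191.2 for Med1cKO and 197.6 for CON. Of the probes, 42.7% were detected in Med1cKO and 40.8% in CON. Detection means a p-value below 0.01 against negative control beads of the same array. The lowest detected intensity was 219.4 on the Med1cKO array and 239.2 on the CON array. The brightest Med1 probe had an intensity of 452 in Med1cKO and 794 in CON (log2 ratio -0.997). With 1 array per genotype no difference below has a replicate error, a test or a p-value, and each compares these 2 pools. Folds are given after background correction, which enlarges ratios of dim probes, and log2 ratios are Med1cKO minus CON. For a gene seen on a single array the fold is a bound (at least N-fold), set against the other array's lowest detected value. Such a bound holds on the background-corrected scale only, and intensities without that correction give smaller ones.

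All 10 basal keratinocyte markers were detected on both arrays, with a median log2 ratio of -0.20. The detected markers of immune cells and fibroblasts were higher in the Med1cKO pool. Of 30 immune cell markers with a probe, 13 were detected, 11 of them on both arrays, and all 13 were above 0. After background correction 10 were at least 2-fold higher, where 3.95% of all detected genes were. Without it 3 were (Laptm5, H2-Ab1 and Cd3g), where 1.95% of all detected genes were. The summed intensity of the immune cell markers over the 30 probes was 19861 in Med1cKO and 13209 in CON. Genes were ranked by corrected ratio, or by bound where a single array detected the gene. The largest were the T cell genes Cd3e (at least 3.49-fold, or at least 1.90-fold uncorrected) and Cd3g (2.74-fold, or 2.15-fold uncorrected), the leukocyte gene Laptm5 (3.38-fold, or 2.49-fold uncorrected) and the Langerhans cell gene Cd207 (2.87-fold, or 1.68-fold uncorrected). Ptprc, Itgam, Itgax and Adgre1, which define leukocytes and myeloid cells, were not detected on either array, and neither were Cd14, Fcgr3 and Tyrobp. The myeloid gene Lyz2 had 246 in Med1cKO and 149 in CON, where it was not detected. Its measured log2 ratio was 1.92 and its bound at least 1.18-fold higher (at least 1.07-fold uncorrected). Fcer1g, an Fc receptor chain, had 430 in Med1cKO and 272 in CON (2.44-fold higher, or 1.635-fold uncorrected). Of 13 fibroblast markers with a probe, 7 were detected, all above 0, but 5 of these on the Med1cKO array only, where a positive ratio is favoured by the filter. Dcn, a small proteoglycan of connective tissue, had 2297 in Med1cKO and 178 in CON, where it was not detected, and was at least 25.97-fold higher (at least 10.03-fold uncorrected). Col1a1, a chain of type I collagen, was at least 3.73-fold higher (at least 1.99-fold uncorrected), the intermediate filament gene Vim at least 2.62-fold (1.59-fold uncorrected) and the proteoglycan gene Lum at least 1.75-fold. The fibroblast markers at least 2-fold higher were thus 3, and 1 without background correction. Pdgfra and Pdgfrb were not detected. The summed intensity of the fibroblast markers was 15387 in Med1cKO and 9289 in CON. Thy1, with 9091 in Med1cKO and 5975 in CON, stands in both of these lists. Without it the fibroblast sum was 6295 in Med1cKO and 3313 in CON, and the immune sum 10769 in Med1cKO and 7234 in CON. Of 13 endothelial markers 4 were detected, all above 0, but 3 of these on the Med1cKO array only. None had a ratio or bound of 2-fold. The summed intensity of the endothelial markers was 2612 in Med1cKO and 2355 in CON, while Cdh5, Kdr and Pecam1 were not detected. Of 6 melanocyte markers with a probe 1 was detected, and of 4 erythrocyte markers 2, with the globin Hba-a1 6.46-fold higher. Of 9 suprabasal keratinocyte markers 8 were detected and none differed 2-fold. In sorted pools, fewer cells of a type and less RNA per cell cannot be told apart. The part of these other cells in the differences below was not tested.

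Of the 128 genes, 49 were detected on at least 1 array, 36 of them on both. The other 79 stayed at intensities of 139.3 to 210.6 in Med1cKO and 137.6 to 235.0 in CON. At least 2-fold higher in Med1cKO were 3 of the 49 (6.1%), Cxcl1, Ccl7 and Cxcl16, where 3.95% of all 7955 detected genes were. At least 2-fold lower were also 3 (6.1%), Ackr2, Il12rb2 and Il34, where 1.81% of all detected genes were. Both shares rest on 3 genes each. The median log2 ratio, taken over measured ratios, was -0.10 for the 49 genes and -0.04 for all detected genes. With bounds for genes seen on a single array, the median was 0.00 for the 49 genes and -0.04 for all. Among genes detected on both arrays the values were -0.23 for 36 chemokine and interleukin genes and -0.06 for all 7182. Within 1.5-fold lay 24 of these 36 genes (66.7%), against 83.4% of all 7182. None of these comparisons with all genes was matched for level. Among all detected genes the spread of log2 ratios (robust SD) fell from 0.97 to 0.23 as level rose over 10 bins. The part of level in the lower share of 66.7% was not tested.

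Of 71 ligand genes 23 were detected, 14 of them on both arrays, and of 56 genes for receptors or binding proteins 26 were detected, 22 of them on both. Of the 14 ligands 7 had a log2 ratio above 0 and 7 below, with a median of 0.01. Of the 22 receptor genes 6 lay above 0 and 16 (72.7%) below, with a median of -0.28, where 56.5% of all 7182 genes detected on both arrays lay below 0. The contrast between ligands and receptors was not tested. The genes at least 2-fold higher were all ligands, while those at least 2-fold lower were 1 ligand and 2 receptors.

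**Figure D1:**
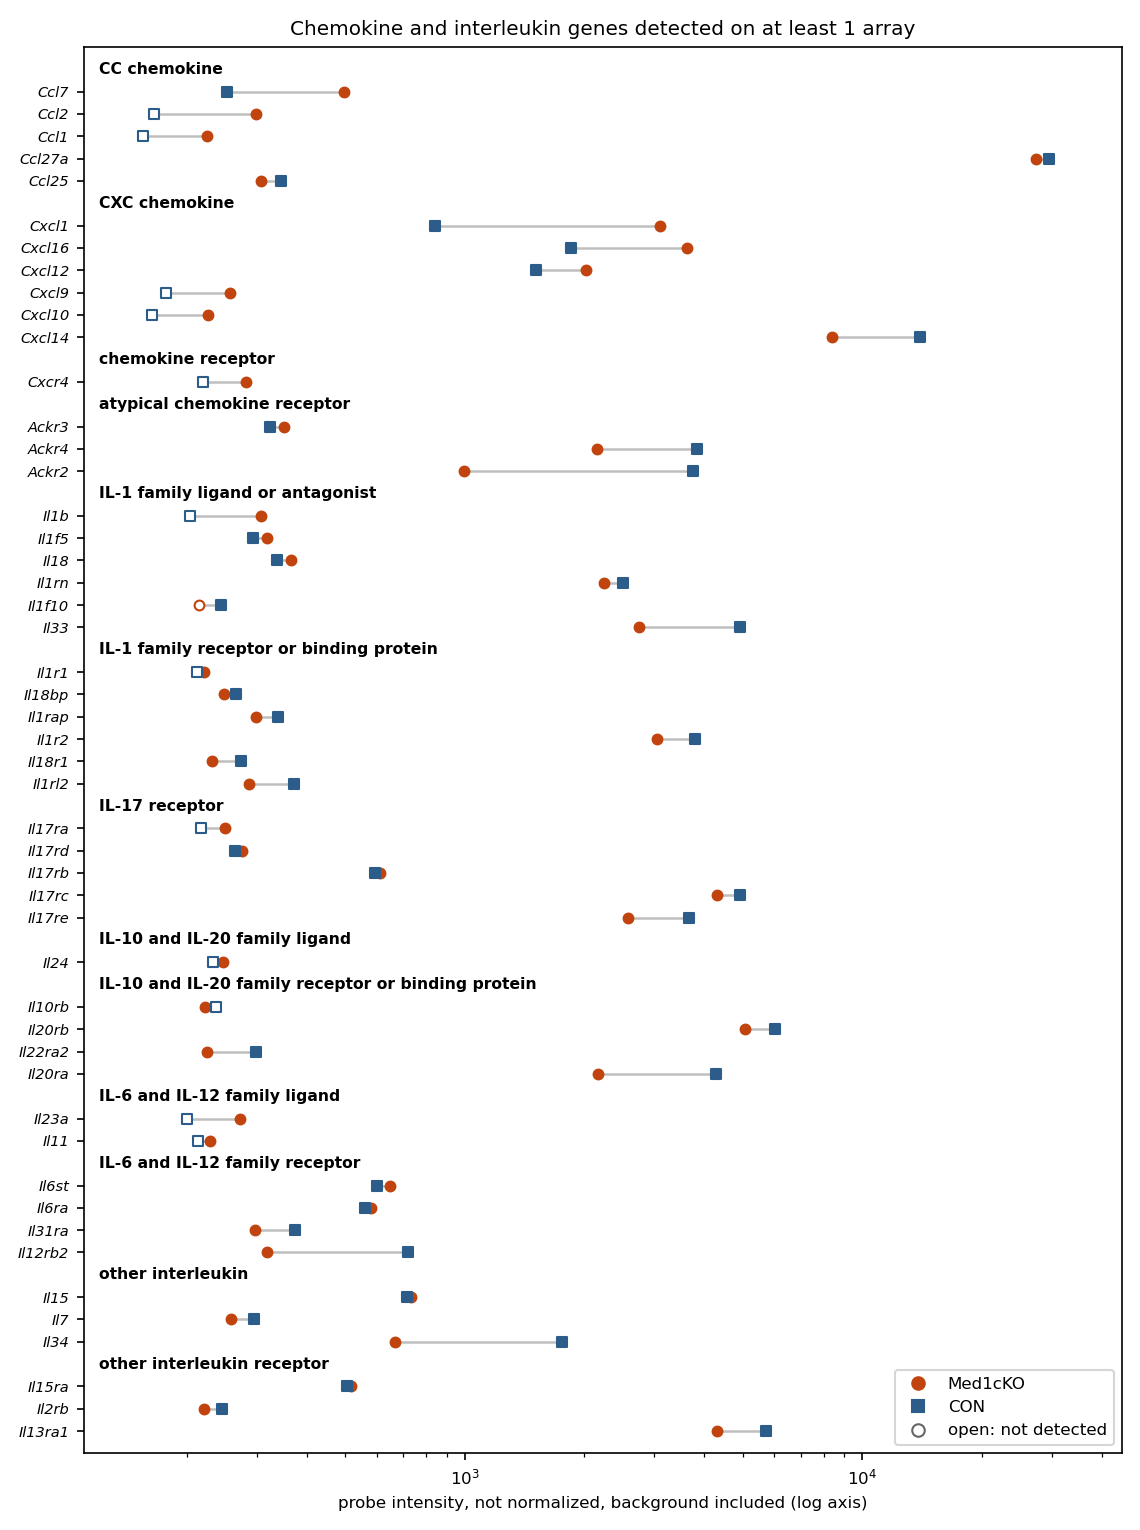
Probe intensity on a log axis for the 49 detected genes, grouped by role, with Med1cKO as circles, CON as squares and open symbols where the array did not detect the probe. Cxcl1 lies at 3098 in Med1cKO and 839 in CON, Ackr2 at 992 in Med1cKO and 3756 in CON, and most other pairs lie close together.

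Among the CXC chemokines Cxcl1 had the largest ratio. Cxcl1, which attracts neutrophils through the receptor Cxcr2, had an intensity of 3098 in Med1cKO and 839 in CON, or 4.51-fold higher (log2 ratio 2.17, where the ratios of genes with a similar level had a robust SD of 0.35). Its relatives of the same neutrophil-attracting group, Cxcl2, Cxcl3 and Cxcl5, were not detected on either array, and neither was Cxcr2. Cxcl16, a membrane-bound chemokine that also takes up oxidized lipid, had 3618 in Med1cKO and 1850 in CON, or 2.15-fold higher (log2 ratio 1.10, similar-gene robust SD 0.32). Its receptor Cxcr6 was not detected. Both ratios changed little without background correction, to 3.87-fold for Cxcl1 and 2.05-fold for Cxcl16.

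The RefSeq promoter of Cxcl1 is shown because a kappaB site, the DNA element bound by NF-kappaB factors, is a textbook feature of this gene. It is set beside the promoters of the genes with the lowest ratios among those with a promoter sequence at hand, Ackr2 and Il12rb2. Each window holds the 250 bases before the start site, 5′ to 3′ on the gene's strand in GRCm38.p6, at chr5:90890995-90891244 (plus strand) for Cxcl1, chr9:121898105-121898354 (plus strand) for Ackr2 and chr6:67376189-67376438 (minus strand) for Il12rb2. Capitals mark matches on either strand to 3 motifs, a kappaB form (GGGANNTTC), AP-1 (TGANTCA) and STAT (TTCNNNGAA).
Cxcl1: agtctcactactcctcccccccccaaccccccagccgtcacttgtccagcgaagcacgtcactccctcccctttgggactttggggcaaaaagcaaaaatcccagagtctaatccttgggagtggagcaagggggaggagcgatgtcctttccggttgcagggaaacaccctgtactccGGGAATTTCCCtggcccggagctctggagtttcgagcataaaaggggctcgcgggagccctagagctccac
Ackr2: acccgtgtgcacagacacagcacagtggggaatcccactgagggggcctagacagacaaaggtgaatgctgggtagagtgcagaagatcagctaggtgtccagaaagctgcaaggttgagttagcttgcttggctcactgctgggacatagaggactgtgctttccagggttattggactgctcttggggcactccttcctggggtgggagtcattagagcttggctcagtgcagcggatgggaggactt
Il12rb2: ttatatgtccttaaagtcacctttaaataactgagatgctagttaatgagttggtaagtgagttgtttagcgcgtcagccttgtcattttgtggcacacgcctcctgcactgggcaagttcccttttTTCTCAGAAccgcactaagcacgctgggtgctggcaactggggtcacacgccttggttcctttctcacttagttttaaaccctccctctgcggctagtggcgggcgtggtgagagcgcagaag
The capitals in Cxcl1 are 2 overlapping kappaB matches, 1 on each strand, from 71 to 61 bases before the start site. The kappaB letters occurred in 3.23% of all 32851 promoter windows, and in 12 of 113 windows (10.6%) from the 96 chemokine and interleukin genes that had one. The capitals in Il12rb2 are 1 STAT match 123 to 115 bases before the start, and such a match occurred in 7.02% of all windows and in 10.6% of those of the family. AP-1 letters occurred in 6.75% of all windows, in 15.9% of those of the family and in none of the 3 shown. Some genes have several windows, so these shares count start sites and not genes. The kappaB letters were shortened after matches had been seen. The first form, with a further C at its end, also matched in Cxcl1, and occurred in 1.21% of all windows and in 9 of 113 (7.96%) of the family. TATA letters (TATAAA) were searched too, and occurred in 12.4% of all windows, in 21.2% of those of the family and in none of the 3 shown. These matches describe letters only and do not show binding.

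The other CXC chemokines differed less than 2-fold. Cxcl12, which binds Cxcr4 and Ackr3, had 2016 in Med1cKO and 1512 in CON by its brightest probe (1.44-fold higher). A second, dim Cxcl12 probe annotated to another transcript went the other way, with 231 in Med1cKO and 253 in CON, so its probes disagree in direction. Cxcl14, a chemokine that resting epidermis makes constantly, had 8384 in Med1cKO and 13982 in CON by its brightest probe, or 1.72-fold lower (log2 ratio -0.78, similar-gene robust SD 0.23), and its second probe was 1.60-fold lower. Cxcl9 and Cxcl10, chemokines induced by interferon that attract T cells, were detected in Med1cKO only. Cxcl9 had 257 in Med1cKO and 177 in CON, at least 1.31-fold higher. Cxcl10 had 226 in Med1cKO and 164 in CON, too close to background for a fold.

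Among the CC chemokines 1 gene, Ccl7, was at least 2-fold higher in the Med1cKO pool. Ccl7, a ligand of Ccr2 and other receptors, had an intensity of 496 in Med1cKO and 253 in CON, or 3.63-fold higher (log2 ratio 1.86, similar-gene robust SD 0.51). Its fold depends on the background correction, because the CON value lies near the detection limit, and was 2.04-fold without it. Ccl2, the main ligand of Ccr2, had 299 in Med1cKO and 165 in CON, where it was not detected, and was at least 1.82-fold higher. The related attractants Ccl8 and Ccl12 were detected on neither array. Ccl1, a ligand of Ccr8, had 225 in Med1cKO and was not detected in CON (155), with no fold to give. Ccr2 and Ccr8 were not detected on either array. The summed immune and fibroblast marker intensities given above were also higher in Med1cKO, and their part in these values was not tested.

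The other detected CC chemokines were nearly equal in the pools. Ccl27a, the skin-homing chemokine of keratinocytes, had 27376 in Med1cKO and 29453 in CON by its brightest probe (log2 ratio -0.10), and its second probe had -0.34. The mouse genome holds near-identical Ccl27 copies, and whether these probes tell them apart was not checked. Ccl25, known from thymus and gut, had 307 in Med1cKO and 345 in CON (log2 ratio -0.23). Ccr10, the receptor of Ccl27, was not detected.

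Of 16 classical chemokine receptor genes only Cxcr4 was detected, and on the Med1cKO array alone. Cxcr4, the receptor of Cxcl12, had 282 in Med1cKO and 220 in CON, and was at least 1.61-fold higher. The other 15 include Ccr6, which Langerhans cell precursors carry.

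Atypical chemokine receptors showed the lowest ratio of the whole set. Ackr2, a scavenger of inflammatory CC chemokines such as Ccl2 and Ccl7, had an intensity of 992 in Med1cKO and 3756 in CON, or 4.09-fold lower (log2 ratio -2.03, similar-gene robust SD 0.32). It was 3.64-fold lower without background correction. Ackr4, which scavenges Ccl19, Ccl21 and Ccl25, was measured by 3 probes, and all were lower in Med1cKO. The brightest had 2148 in Med1cKO and 3832 in CON (log2 ratio -0.82), the next 890 in Med1cKO and 1623 in CON (-0.91), and the dimmest 355 in Med1cKO and 605 in CON (-1.06). Ackr3, which binds Cxcl12, had 351 in Med1cKO and 323 in CON (log2 ratio 0.30). Ackr1 was not detected.

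**Figure D2:**
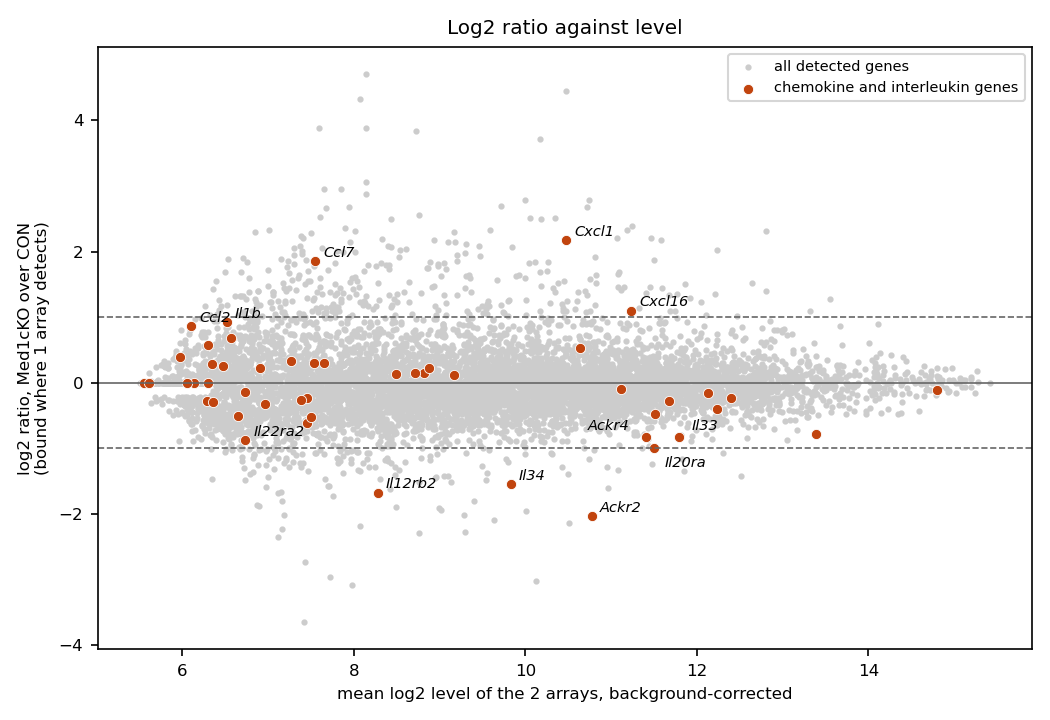
Log2 ratio (Med1cKO over CON, a bound where only 1 array detected the gene, and 0 where no fold can be given) against the mean log2 level of both arrays, with all 7955 detected genes in grey and the 49 chemokine and interleukin genes in colour. Cxcl1, Ccl7 and Cxcl16 lie above the upper dashed 2-fold line, and Ackr2, Il12rb2 and Il34 below the lower one.

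Interleukin 1 family ligands lay on both sides of 0. Il1b, the secreted inflammatory form, had 306 in Med1cKO and 204 in CON, where it was not detected, and was at least 1.90-fold higher. Il33, a nuclear alarmin of epithelial cells, had 2742 in Med1cKO and 4922 in CON, or 1.77-fold lower (log2 ratio -0.82, similar-gene robust SD 0.29). Il1rn, the soluble antagonist of the Il1 receptor, had 2238 in Med1cKO and 2504 in CON by its brightest probe (log2 ratio -0.10). Il18 had 366 in Med1cKO and 337 in CON (log2 ratio 0.30). Il1f5, the antagonist of the Il36 receptor, had 318 in Med1cKO and 293 in CON (log2 ratio 0.33). Il1f10, another family member, was detected in CON only, with 215 in Med1cKO and 243 in CON (at least 1.21-fold lower). Il1a and the Il36 agonists Il1f6 and Il1f9 were not detected.

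Receptors of this family leaned lower by small amounts. Il1r2, the decoy receptor, had 3051 in Med1cKO and 3786 in CON (log2 ratio -0.27). Il1rl2, the Il36 receptor, had 287 in Med1cKO and 372 in CON, or 1.52-fold lower, or 1.25-fold without background correction. The shared accessory chain Il1rap had -0.27 by its brightest probe and -0.61 to 0.12 over 4 probes detected on both arrays, so its direction is not settled. Il18r1 had 231 in Med1cKO and 274 in CON (log2 ratio -0.50) and the Il18 binding protein Il18bp 247 in Med1cKO and 266 in CON (-0.14). Il1r1, the signalling receptor, was detected in Med1cKO only, with 221 in Med1cKO and 212 in CON, so no fold is given. In this family 5 of 6 detected receptor or binding protein genes were below 0, with Il1rap counted by its brightest probe, and none differed 2-fold. These 5 were the ones detected on both arrays. Of all genes detected on both arrays 56.5% were below 0. The ratios of Il1r2, Il18r1, Il18bp and Il1rap (brightest probe) lay within the similar-gene robust SD (0.29, 0.55, 0.55 and 0.51). That of Il1rl2 (log2 ratio -0.61) lay beyond it (0.51).

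Of 6 receptor genes of the Il10 and Il20 group 4 were detected, and none was at least 2-fold lower by its brightest probe. Il20ra, which pairs with Il20rb to bind Il19, Il20 and Il24, cytokines that drive keratinocyte growth and alter differentiation, was measured by 3 probes. The brightest had 2161 in Med1cKO and 4290 in CON, or 1.99-fold lower (log2 ratio -0.99, similar-gene robust SD 0.29). Another had 469 in Med1cKO and 1061 in CON (-1.43), and the dimmest 228 in Med1cKO and 438 in CON (-1.76). Thus Il20ra lies just short of the 2-fold line by its brightest probe and beyond it by the other two. Its partner Il20rb had 5080 in Med1cKO and 6034 in CON (log2 ratio -0.24, similar-gene robust SD 0.23), and a second probe had -0.44. Il22ra2, a soluble decoy for Il22, had 225 in Med1cKO and 298 in CON, or 1.82-fold lower (1.28-fold without background correction). Il22ra1, the signalling Il22 receptor chain, was detected on neither array, with 175 in Med1cKO and 235 in CON. Il10rb, the chain shared by Il10 and Il22, was detected in Med1cKO only, with 222 in Med1cKO and 236 in CON. Of the ligands, Il24 had 247 in Med1cKO and 233 in CON (at least 1.19-fold higher), and Il10, Il19, Il20 and Il22 were not detected.

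**Figure D3:**
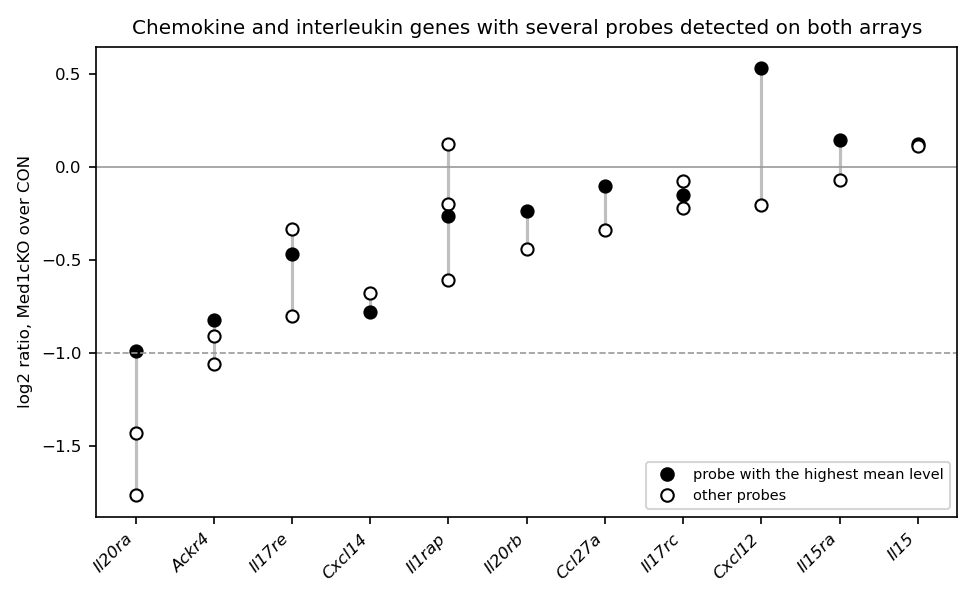
Log2 ratio (Med1cKO over CON) of each probe of the 11 genes that had several probes detected on both arrays, with the brightest probe filled. All 3 probes of Il20ra and of Ackr4 lie at -0.82 or below, whereas the probes of Cxcl12, Il1rap and Il15ra lie on both sides of 0.

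All 5 Il17 receptor genes were detected and none of the 6 Il17 ligand genes was. Il17re, the receptor for the epithelial cytokine Il17c, had 2575 in Med1cKO and 3665 in CON by its brightest probe (log2 ratio -0.47), and its other 2 detected probes had -0.34 and -0.80. Il17rc, a chain of the receptor for Il17a and Il17f, had 4321 in Med1cKO and 4929 in CON (-0.15), with -0.08 and -0.22 by its other probes. Il17ra, the chain shared across the family, was detected in Med1cKO only, with 249 in Med1cKO and 217 in CON (at least 1.22-fold higher). Il17rb, the receptor for Il25, had 610 in Med1cKO and 594 in CON (0.14). Il17rd had 275 in Med1cKO and 265 in CON (0.23).

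In the Il6 and Il12 families 1 receptor chain stood well below the rest. Il12rb2, the signalling chain for Il12, had an intensity of 319 in Med1cKO and 718 in CON, or 3.19-fold lower (log2 ratio -1.67, similar-gene robust SD 0.46), and 2.17-fold lower without background correction. Its partner Il12rb1 and the Il23 receptor Il23r were not detected. Il23a, a subunit of Il23, had 272 in Med1cKO and 200 in CON, where it was not detected, and was at least 1.49-fold higher. Il6st, the gp130 chain shared by the Il6 family, had 647 in Med1cKO and 601 in CON (log2 ratio 0.22), and Il6ra had 579 in Med1cKO and 559 in CON (0.16). Il31ra, a receptor chain for the itch cytokine Il31, had 296 in Med1cKO and 374 in CON (-0.53). Il11 had 228 in Med1cKO and 213 in CON, where it was not detected, and Il6 was not detected on either array.

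Il34 had the lowest ratio of the detected ligands. This cytokine, which keratinocytes make and which sustains Langerhans cells through the receptor Csf1r, had 668 in Med1cKO and 1758 in CON, or 2.91-fold lower (log2 ratio -1.54, similar-gene robust SD 0.37), and 2.49-fold lower without background correction. Csf1, the other ligand of that receptor, had 232 in Med1cKO and 348 in CON (2.23-fold lower, or 1.45-fold without background correction). The Langerhans cell gene Cd207 had 388 in Med1cKO and 240 in CON, and H2-Ab1, an MHC class II gene of antigen-presenting cells, had 1156 in Med1cKO and 543 in CON.

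Cytokines that sustain T cells were nearly equal in the pools. Il15 had 732 in Med1cKO and 714 in CON (log2 ratio 0.12, and 0.11 by a second probe), and its receptor chain Il15ra 516 in Med1cKO and 505 in CON (0.14, and -0.07 by a second probe). Il7, which epidermal T cells also need, had 258 in Med1cKO and 294 in CON (-0.32). Il2rb, the chain of the Il2 and Il15 receptors that T cells carry, had 220 in Med1cKO and 245 in CON (-0.29), near the detection limit on both arrays. Il13ra1, a chain for Il4 and Il13, had 4312 in Med1cKO and 5711 in CON (log2 ratio -0.40, similar-gene robust SD 0.23).

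**Figure D4:**
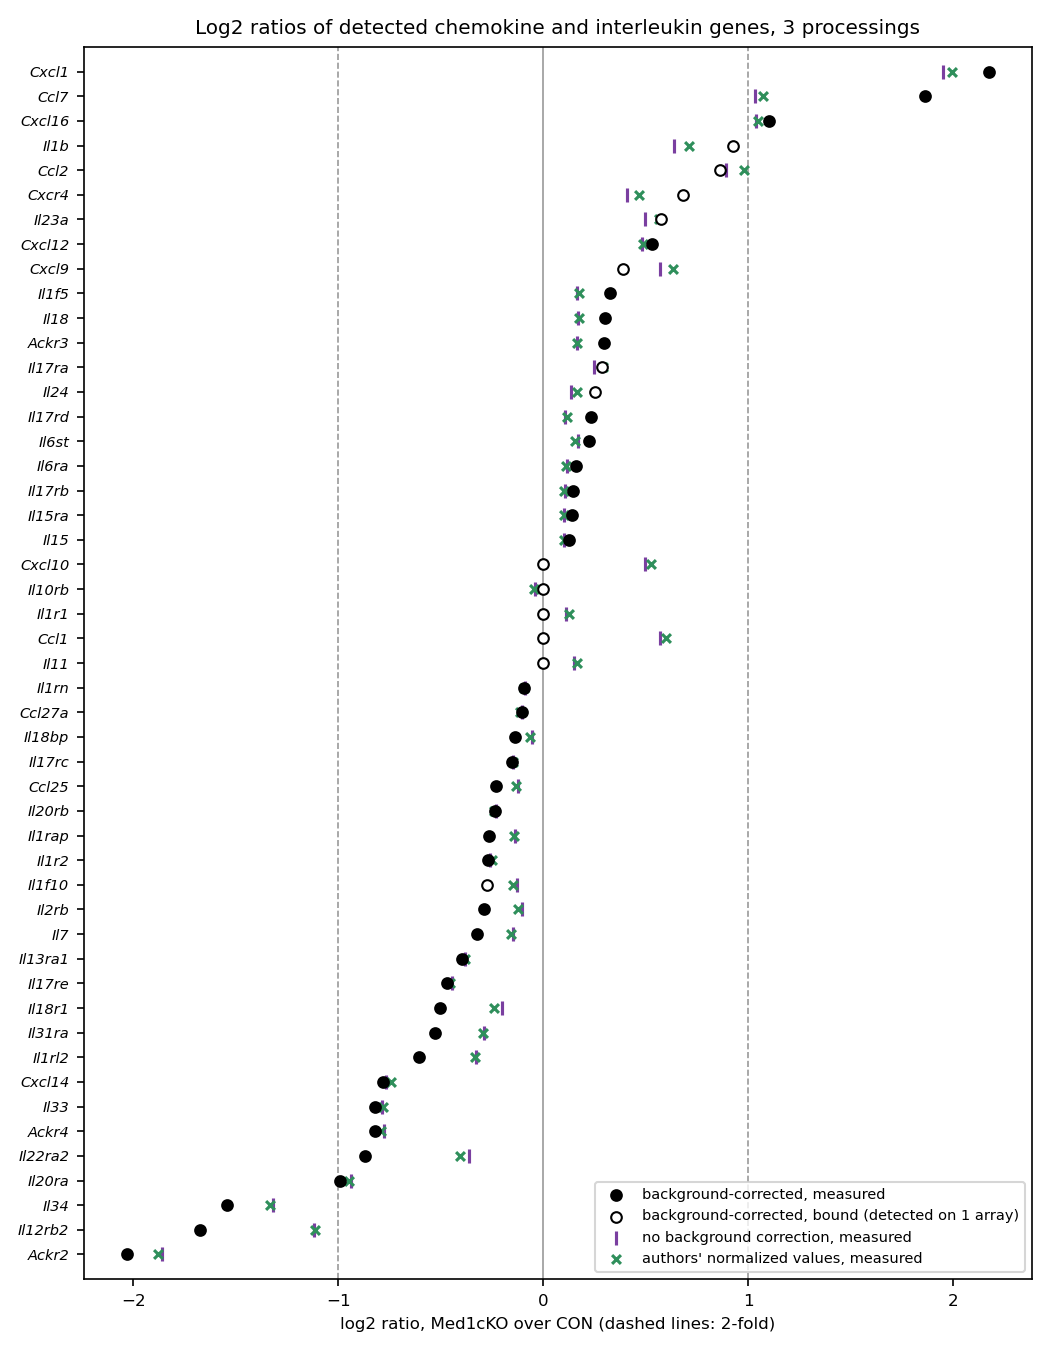
Log2 ratio (Med1cKO over CON) of the 49 detected genes under background correction (filled, or open for a bound from 1 array and at 0 where no fold is given), without background correction, and in the authors' normalized values. The 6 genes beyond 2-fold lie beyond the dashed lines in each of the 3, and Ccl7 and Il12rb2 move closest to the lines without background correction.

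Detection itself was uneven. Of the 49 genes, 12 (24.5%) were detected in Med1cKO only, where 6.64% of all detected genes were, and 1 (2.0%) in CON only, where 3.08% of all were. These genes are dim. Of 14 that lie in the dimmest of 10 level bins, 12 were detected in Med1cKO only and 1 in CON only, whereas of all 796 genes in that bin 56.0% were detected in Med1cKO only and 28.4% in CON only. The Med1cKO array also has the lower detection limit, and 7 of the 12 (Il1b, Ccl2, Cxcr4, Il23a, Cxcl9, Il17ra and Il24) exceed the lowest detected CON intensity. That is 58.3% of the 12, against 53.4% of all 528 genes detected in Med1cKO only. None of the 12 chemokine and interleukin genes detected in Med1cKO only has a bound of 2-fold.

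Genes that act with these cytokines were read from lists of related genes. Of 18 cytokines named outside the symbol rule 8 were detected. Their median log2 ratio was 0.16 by measured ratios, 3 of them from genes detected in Med1cKO only. For the 5 detected on both arrays the median was -0.06. By at least 2-fold 1 was higher and 1 lower. The first was Tnf, with 562 in Med1cKO and 185 in CON, where it was not detected (at least 5.0-fold higher, or at least 2.45-fold uncorrected), and the second was Csf1. Tslp, an epithelial cytokine of allergic inflammation, was at least 1.52-fold higher, and Mif had log2 ratio 0.23. Of 24 further cytokine receptors 11 were detected and none differed 2-fold, with a median of -0.20 (-0.28 for the 10 on both arrays). Ccrl2, an atypical receptor relative, had -0.75, Osmr, which pairs with Il31ra and Il6st, -0.53, Ifngr2 0.52 and Tnfrsf1a 0.42.

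Of 29 genes for signalling from the Il1 receptor to NF-kappaB 26 were detected, 19 above 0 and 7 below. Their median log2 ratio was 0.15, and 0.13 for the 24 detected on both arrays. At least 2-fold higher were 3 and lower none, where 3.95% of all detected genes were higher and 1.81% lower. Zc3h12a, a ribonuclease that degrades cytokine mRNAs, had 2175 in Med1cKO and 810 in CON (3.24-fold higher). Bcl3, a nuclear partner of NF-kappaB, had 413 in Med1cKO and 239 in CON, where it was not detected (at least 3.20-fold higher, or at least 1.80-fold uncorrected). The inhibitor Nfkbib was 2.20-fold higher (1.55-fold uncorrected) and the inhibitor Nfkbia 1.75-fold. Without background correction Zc3h12a alone of this list stayed at least 2-fold higher (2.81-fold). Of 13 genes for interleukin 1 processing 5 were detected, and 1 was at least 2-fold higher. That was Casp1, the protease that matures Il1b and Il18, with 4737 in Med1cKO and 1892 in CON (2.76-fold). Casp4 had log2 ratio 0.83, Casp8 0.42 and Pycard -0.14.

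Of 25 JAK and STAT pathway genes 20 were detected, 10 above 0 and 10 below. Their median log2 ratio was 0.00, and -0.07 for the 18 detected on both arrays. Socs2, a feedback inhibitor, had 653 in Med1cKO and 284 in CON (3.98-fold higher, or 2.38-fold without background correction), and no other gene of the list differed 2-fold. Stat5a had -0.71, Pias3 -0.62 and Socs6 0.50. Of 23 genes that act downstream of chemokine receptors 12 were detected, with a median of 0.03 (-0.09 for the 11 on both arrays). Rgs1, which limits G protein signals in lymphocytes, had 921 in Med1cKO and 347 in CON (4.12-fold higher, or 2.75-fold without background correction), and Arrb1, a beta-arrestin, had 293 in Med1cKO and 507 in CON (2.34-fold lower, or 1.67-fold without background correction). Grk6, a receptor kinase, had -0.64 and Gng5 0.58.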

How the data were processed

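The deposited values are of 2 kinds. The first file holds, per the file headers, a non-normalized intensity and a detection p-value for each probe. Its lowest values lie well above 0, so the background is still in them. The submitters' processing notes name GenomeStudio 2011.1. A second table holds intensity values normalized by the authors (medians 198.7 for Med1cKO and 198.4 for CON, linear, uncentred, same direction). Their method of normalization is not stated in the labels or headers. They served as an alternative. With neqc of limma 3.58.1 in R 4.3.3, the deposited intensities were background-corrected from the detection p-values, given an offset of 16, quantile-normalized and put on a log2 scale. The background was estimated at 163.0 (SD 17.0) for Med1cKO and 168.0 (SD 21.9) for CON. The correction and normalization were tested on simulated data, with changed probes of middle brightness only and the same background on both arrays. Folds of dim probes and the bounds were not covered by that simulation. Later steps used Python 3.11.15, numpy 2.4.6, pandas 2.3.3 and matplotlib 3.10.9.

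Groups came from the sample titles. Symbols are those of the platform annotation, which gave 23978 of 25697 probes a symbol. All 174 probes of the genes described matched RefSeq (GRCm38.p6) by Entrez ID, with no symbol changed. Of several probes for a gene, the one with the highest mean level stands for it. Where only 1 array detected that probe, the other array's value was replaced by the lowest detected value there (log2 6.20 for Med1cKO, 6.41 for CON) if it was dimmer, and the fold is written as at least N-fold. A bound not above 1 gives no fold. The robust SD is the scaled median absolute deviation of log2 ratios in 1 of 10 level bins, and it measures spread among genes, not error. Precision is limited by the number of arrays, 1 per group. Every detected gene of the family was named, and of each further list up to 4 genes with the largest ratios or bounds. Genes outside this rule (not detected, or H2-Ab1, Thy1, Lyz2 and Fcer1g) were named after their values were seen. The members and lists were chosen with earlier results of these data known. Promoter sequences are RefSeq's, and 96 of the 128 genes had one.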

Additional observations from a re-analysis of the deposited data

How the results depend on the processing

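The counts, median and single values of the chemokine and interleukin genes were recomputed under 10 alternatives: no background correction, the authors' normalized values, cyclic loess, median scaling, an offset of 50, detection thresholds of 0.05 and 0.001, genes detected on both arrays, no detection filter, and the mean over detected probes. The same 6 genes (Cxcl1, Ccl7, Cxcl16, Ackr2, Il12rb2 and Il34) stayed beyond 2-fold in the same direction under all 10. Each has 1 probe, detected on both arrays. For such genes the threshold of 0.05, both-array detection, no filter and the probe mean return the main value by construction. The threshold of 0.001 changed only Ccl7 among the 6 (log2 ratio 1.37). The other alternatives, which change the normalization or background, are thus the ones that could move these genes. The number at least 2-fold higher was 3 or 4, except 7 at a detection threshold of 0.05, which adds Ccl2, Il1b, Cxcr4 and Il23a. The number at least 2-fold lower was 3 or 4. These counts are out of 36 to 128 genes of the family. Of all genes, 1.95% to 4.49% were at least 2-fold higher under the alternatives and 0.55% to 2.08% lower. With no detection filter 3 of 128 genes were higher and 4 lower, where 2.06% of all genes were higher and 1.11% lower. The median log2 ratio ranged from -0.23 to 0.06, so its sign is not settled. Of 465 single-gene values 5 moved by over 1.5-fold (Ccl7 to log2 1.03 without background correction and to 1.07 in the authors' values, and at a threshold of 0.001 Ccl2 to 0.15, Il1b to 0.22 and Cxcr4 to no fold), and none reversed. The same alternatives were added for the further lists and for ligands and receptors after the data were seen. Immune markers at least 2-fold higher numbered 3 to 10, with 3 both without background correction and in the authors' values. Fibroblast markers ranged from 0 (genes detected on both arrays) to 4, and NF-kappaB genes from 1 to 3. Csf1 and Arrb1 were not 2-fold lower without background correction or in the authors' values, nor was Csf1 with an offset of 50 or a threshold of 0.001. On both arrays the median was -0.10 to 0.08 for ligands and -0.32 to -0.22 for receptors. Detection shares were not recomputed. No paired analysis was possible because each group has 1 array. Signal over background limits 14 of the 49 genes, which lie in the dimmest of 10 level bins, where the robust SD of log2 ratios was 0.97.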

Other observations

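Several of these genes lie next to each other among protein-coding genes of the mouse genome (RefSeq, GRCm38.p6), and neighbours were read together after their values were seen. On chromosome 11 the order is Ccl2, Ccl7, Ccl11, Ccl12, Ccl8 and Ccl1. Ccl7 was 3.63-fold higher in the Med1cKO pool, and Ccl2 and Ccl1 were detected there only. Ccl11 (211 in Med1cKO and 170 in CON by its brighter probe) and Ccl8 (209 in Med1cKO and 167 in CON) fell short of detection on both arrays, and Ccl12 had 166 in Med1cKO and 176 in CON. On chromosome 5, in the order Cxcl3, Cxcl15, Cxcl1 and Cxcl2, only Cxcl1 was detected. On chromosome 10 Il22ra2 and Il20ra are neighbours, with log2 ratios of -0.87 and -0.99. On chromosome 6 Il17re and Il17rc had -0.47 and -0.15, and Il12rb2 (-1.67) lies beside Il23r, which was not detected. On chromosome 13 Il6st and Il31ra had 0.22 and -0.53.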
